A study of Drosophila melanogaster with 399 samples.

Results

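The heat-inducible chaperone genes Hsp70Aa, Hsp70Ab, Hsp70Ba, Hsp70Bb, Hsp70Bbb, Hsp70Bc and Hsp68 of Drosophila melanogaster were followed in whole embryos through a screen of transcription factor (TF) knockdowns. They are 7 of the 17612 genes counted, taken by gene symbol. They were chosen by the knockdown and control levels in the window of peak TF expression, where Hsp70Bb was called lower in the knockdown for 16 of 45 TFs, and the paralogs and Hsp68 were added by name. The values of that window are therefore given below as a description only. The tests of knockdown against control rest on embryos of 0–1.5 and 16–18 hours. The test of age rests on the contrast of these windows in control embryos. These embryos came from the same crosses and control sets as those of the peak. The counts of lower Hsp70Bb at 16–18 hours are therefore not independent of the choice.

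Hsp70 proteins bind unfolded polypeptides and release them through cycles of ATP hydrolysis, helped by J-domain proteins and nucleotide exchange factors. In flies the inducible Hsp70 copies are nearly identical, contain no introns and are driven by the heat shock factor Hsf, which binds their promoters after heat or other stress. Paused RNA polymerase already sits on these promoters before induction. Hsp68 is a more diverged inducible relative, whereas the Hsc70 cognates are made in unstressed cells. Embryos in early cleavage are known to induce Hsp70 poorly.

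By the methods, knockdown embryos came from males of 1 TRiP hairpin line per TF, in the Valium20 vector. These males were crossed to females homozygous for da-Gal4 on chromosomes 2 and 3. Their offspring carried 2 copies of the driver, which is expressed in every cell from the mother onward, and 1 copy of the UAS hairpin. The 271 knockdown libraries cover 45 TFs, and the control libraries cover 21 sets, each collected beside 1 or more TFs. In 19 sets the control hairpin was directed at mCherry, a fluorescent protein gene that flies lack, so that hairpin, driver and RNAi were all present. For E5 the label of the controls reads da-Gal4, for twi it reads MTD-Gal4, and the labels do not say whether these embryos carried a hairpin. They also do not name the driver of the twi knockdown embryos, which may have differed from da-Gal4. Embryos were collected at 0–1.5 hours after egg laying (AEL), in a 2-hour window of peak TF expression between 2 and 16 hours, and at 16–18 hours, with a second peak window for Hr51 and CG9876. By the methods, all crosses were kept, and eggs aged, at a temperature chosen to maximize Gal4 function. Embryos were dechorionated in bleach before freezing. The levels below are those of embryos handled in this way. Every group of 1 cross and 1 window had 2 libraries, described as biological replicates, apart from 3 knockdown groups with 1. The methods describe the doubly homozygous driver stock as unstable. They place the hairpin on chromosome 2 or 3, according to where the target gene lies. The chromosome of the hairpin can thus differ among TFs and from that of the control. Exact insertion sites, dates of collection and the assignment of crosses to bottles or sequencing runs were not given in the labels.

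The count on genes per library was between 13148430 and 167412388 and had its median at 54799768. RNA of the TF that the hairpin targets stood lower in both libraries of the knockdown than in both of the control in 34 of 45 comparisons at 16–18 hours, in 36 of 44 at the peak and in 21 of 43 at 0–1.5 hours. Maternal egg transcripts (bcd, osk and nos), which fall away as development proceeds, summed to 1134 and 2290 CPM (counts scaled to the library total) in the caup knockdown at 16–18 hours, against a median of 77.2 CPM over all 132 libraries of the window. One Bdp1 knockdown library of 0–1.5 hours held 115.5 CPM of egg transcripts and 1038 CPM of late muscle transcripts (Mhc, up and wupA), where the medians were 540.6 and 60.7 CPM. The choriogenic follicle cell genes Cp36, Cp38 and Cp18 summed to at most 1.995 CPM at 16–18 hours and to at most 0.447 CPM at 0–1.5 hours, and the yolk protein genes Yp1, Yp2 and Yp3 to at most 6.196 and 1.42 CPM. The change with age and the spread between control groups are also given for the mCherry sets alone. For the calls, the effect of leaving out caup, Bdp1 or the sets without an mCherry label is stated at the end. The other results were given only with these libraries.

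On the dm6 build all 7 genes lie on chromosome arm 3R, each as a single exon. Hsp70Aa (FBgn0013275, 3R:11954163-11956544, minus strand) and Hsp70Ab (FBgn0013276, 3R:11958535-11960909, plus strand) form a divergent pair. Hsp70Ba (FBgn0013277, 3R:12465453-12467776, minus strand) stands apart from the tandem copies Hsp70Bbb (FBgn0051354, 3R:12502510-12504856), Hsp70Bb (FBgn0013278, 3R:12505793-12508139) and Hsp70Bc (FBgn0013279, 3R:12509076-12511461), all on the plus strand. Hsp68 (FBgn0001230, 3R:24055080-24057310, minus strand) is distant from both clusters. The short pseudogenes CR46154 and CR46155, which sit between the tandem copies, had a median of 0 CPM per kilobase at 0–1.5 and at 16–18 hours. The annotated ends of Hsp70Ab and CG3281, and of Hsp68 and CG6000, overlap on opposite strands.

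Reads that aligned equally well to several places were not counted. For near-identical genes the counts therefore come from those reads that cover a difference between the copies, and the division among paralogs is uncertain, so the sum of the 6 Hsp70 genes is given beside the single genes. The hairpin vector and some Gal4 constructs contain a minimal hsp70 promoter, and reads from such transgene pieces and from the endogenous genes cannot be told apart in these counts. In whole embryos, fewer cells with a transcript and less transcript per cell cannot be told apart either.

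The counted Hsp70 paralog changed during embryogenesis. Hsp70Ab held most of the small Hsp70 signal in the first 1.5 hours, and Hsp70Bb held nearly all of it from 6 hours onward. At 0–1.5 hours Hsp70Ab had the highest level of the 6 in 115 of 130 libraries and took a median of 65.0% of the sum, and Hsp70Bb led in 13 libraries with a median share of 17.7%. At 16–18 hours Hsp70Bb led in 124 of 132 libraries with a median share of 93.9%, Hsp70Bc led in 5 and Hsp70Ab in 3, with median shares of 1.65% and 1.87%. In the windows between 6 and 16 hours the median share of Hsp70Bb lay between 87.9% and 96.9%, and at 2–4 hours it was 49.6%.

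**Figure D1:**
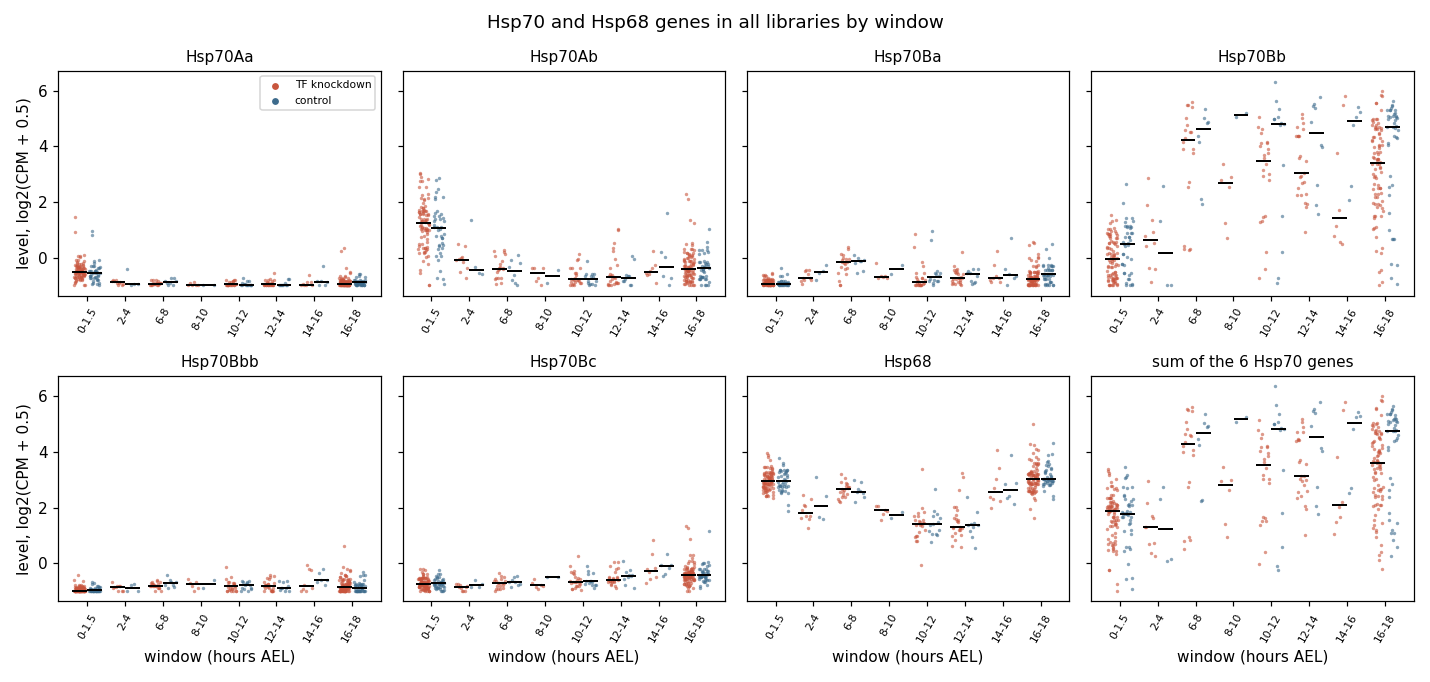
Level of each of the 7 genes and of the sum of the 6 Hsp70 genes, as log2(CPM + 0.5) after TMM over all libraries, against the window in hours AEL. Points are libraries, red for TF knockdowns and blue for controls, and black bars are medians. Hsp70Ab is highest at 0–1.5 hours, Hsp70Bb and the sum are high and widely scattered from 6 hours onward, and Hsp68 is lowest at 10–14 hours.

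Per kilobase of exon, a scale on which genes can be compared, Hsp70Bb had a median of 5.50 CPM per kilobase over the libraries of 16–18 hours, against 0.238 at 0–1.5 hours. Hsp68 stood at 3.46 and 3.28 CPM per kilobase at the same windows, and Hsp70Ab at 0.111 and 0.733. The other copies were close to the limit of counting. At 16–18 hours their medians were 0.105 for Hsp70Bc, 0.0455 for Hsp70Ba, 0.0202 for Hsp70Bbb and 0.0105 for Hsp70Aa, all in CPM per kilobase. Hsp70Aa had no read in 35 of 90 knockdown and 11 of 42 control libraries of that window, and Hsp70Bbb in 22 knockdown and 17 control libraries. Levels between windows are CPM after scaling all libraries together by TMM, a trimmed mean over genes. Levels within a window are CPM after scaling the libraries of that window. The means of a cross at the peak and at 16–18 hours, set side by side below, are of the second kind.

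The question of how the genes change with age was answered in the control libraries of all windows, with the control set as a term of the fit and 0–1.5 hours as the base. At 16–18 hours Hsp70Bb was higher by 4.21 on the log2 scale (SE 0.25, adjusted p = 1.28e-31, edgeR's quasi-likelihood test with Benjamini-Hochberg adjustment). Its control libraries ran from 0.0210 CPM through a median of 25.5 to 49.5 CPM at 16–18 hours, and from 0 through 0.914 to 5.77 CPM at 0–1.5 hours. The ranges overlapped through a few low libraries of 16–18 hours, described below. Age was a broad difference, since 50.8% of the 13101 genes tested were called higher and 35.6% lower at 16–18 hours, and the median gene was higher by 0.62.

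Hsp70Ba, Hsp70Bbb and Hsp70Bc were called higher at 16–18 hours as well, by 2.28 (SE 0.30), 1.42 (SE 0.40) and 1.24 (SE 0.22) on the log2 scale. Hsp70Ab and Hsp70Aa, the pair of the other locus, went the opposite way. Hsp70Ab was lower by 2.74 (log2 fold change -2.74, SE 0.29, edgeR adjusted p = 1.29e-15) and Hsp70Aa by 2.28 (log2 fold change -2.28, SE 0.29, edgeR adjusted p = 7.27e-12). The 6 genes together were higher by 2.34 (SE 0.23). All of these kept their sign and call with RLE size factors, under which the median gene was higher by 1.34. In the mCherry sets alone the log2 fold changes were 4.195 for Hsp70Bb, 2.34 for Hsp70Ba, 1.225 for Hsp70Bbb and 1.004 for Hsp70Bc. They were -2.914 for Hsp70Ab, -2.433 for Hsp70Aa and 2.4 for the sum.

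The windows between are peak windows of TFs, whose control libraries were among the values that chose the genes, and they are described without a test. Hsp70Bb in controls differed from 0–1.5 hours by a log2 fold change of 4.10 (SE 0.40, 8 libraries) at 6–8 hours, and its medians lay between 22.7 and 34.9 CPM from 6 to 16 hours. At 2–4 hours the value was 1.00 (SE 0.73) in 4 control libraries, of which 2 had no read of the gene. Hsp70Ba had a log2 fold change of 3.36 (SE 0.73) at 2–4 hours, at control levels of 0.0681 to 0.325 CPM.

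Hsp68 followed another course. Against 0–1.5 hours its log2 fold changes in controls were negative in every window from 2–4 to 14–16 hours, and the largest in size was -1.92 (SE 0.17) at 10–12 hours, also given without a test. At 16–18 hours the difference was 0.07 (SE 0.10, edgeR adjusted p = 0.506), with control medians of 7.67 CPM at 16–18 hours and 7.21 CPM at 0–1.5 hours. That last difference depended on the scaling, being called higher by 0.73 with RLE size factors and with DESeq2.

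At 16–18 hours Hsp70Bb varied from cross to cross more than nearly any other gene. The mean of the 2 libraries of a group ran from 0.0886 to 50.8 CPM over the 45 knockdowns, with a median of 8.01 CPM, and from 0.961 to 38.4 CPM over the 19 mCherry control groups, with a median of 25.5 CPM. On log2(CPM + 0.5) the standard deviation between groups was 1.67 and that between the libraries of a group 0.50, so that 91.7% of the variance lay between groups. The median of the 10059 genes compared was 0.29 for both standard deviations, with 55.4% of the variance between groups. Among the mCherry controls alone, which share 1 control hairpin in the stock list, the standard deviation between groups was 1.43, and only 2 of 10059 other genes had a larger one.

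Hsp68 did not share this spread. Its standard deviation between groups at 16–18 hours was 0.26, below the 0.38 found between the libraries of a group. Among the other Hsp70 genes the between-group values ran from 0 for Hsp70Aa to 0.19 for Hsp70Ba. Their median group means over the 45 knockdowns were at most 0.248 CPM, and adding 0.5 CPM before the log narrows the spread at such levels. Group means of Hsp70Ab still ran from 0.0408 to 1.88 CPM over the knockdowns. The small values thus do not show that these copies were alike between crosses. At 0–1.5 hours the gene with the widest spread of the 7 on this scale was Hsp70Ab. It had 0.82 between groups and 0.41 within them, where the median gene had 0.13 and 0.22. The other Hsp70 copies had lower levels there, which narrows their values in the same way.

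**Figure D2:**
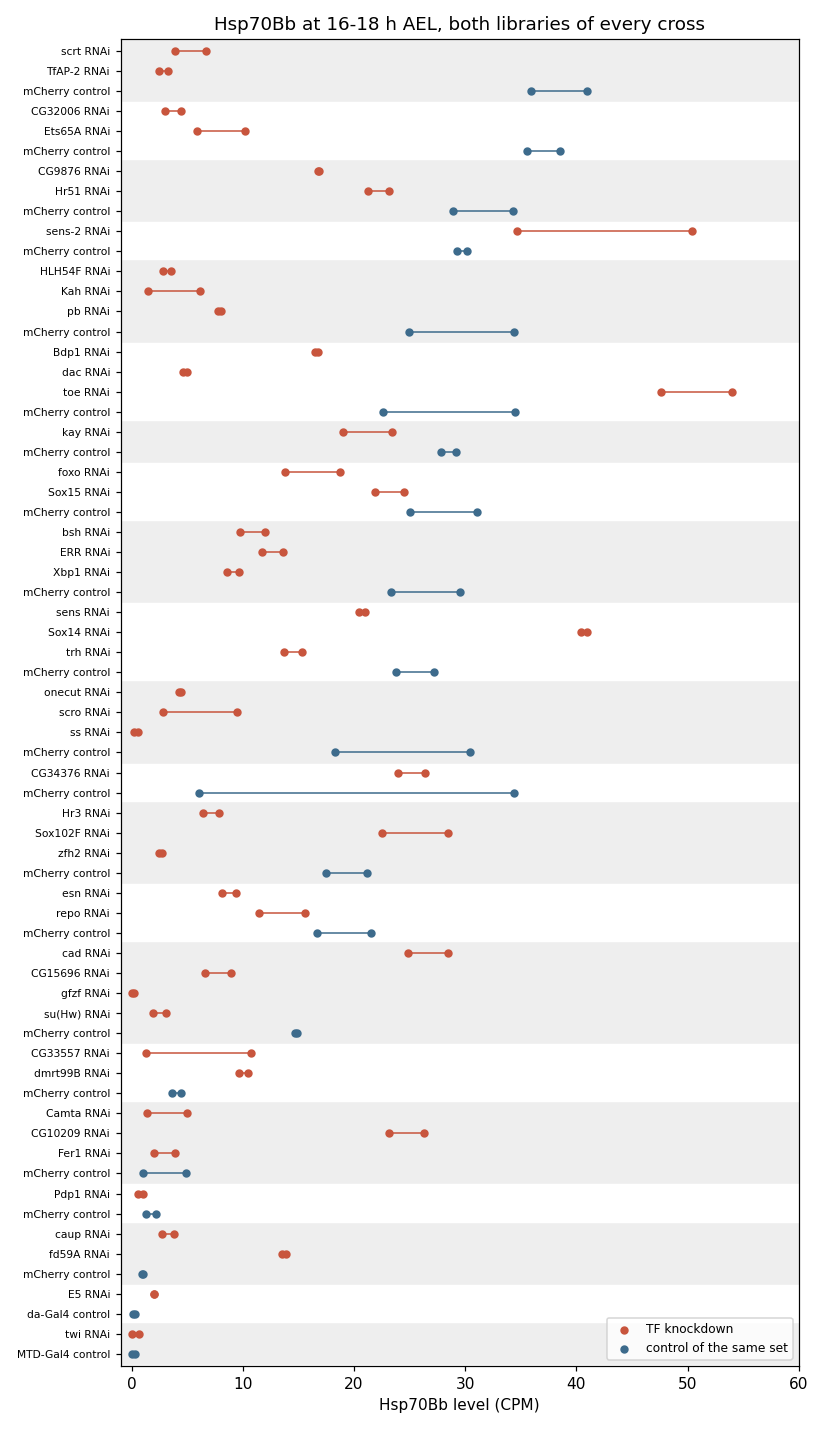
Hsp70Bb in CPM (horizontal axis) in every library of 16–18 hours AEL, 1 line per cross, with the 2 libraries of a cross joined. Red crosses are TF knockdowns and the blue cross under them, in the same shaded or white band, is their control, with sets ordered by the control's mean. Most red points lie left of their own control, toe, Sox14 and sens-2 lie right of it above 30 CPM, and the lowest 6 control sets lie under 5 CPM.

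The control crosses fell apart into high and low ones. Of the 19 mCherry sets, 12 had 20 CPM or more of Hsp70Bb at 16–18 hours and 4 had less than 10 CPM. The 4 low sets were those of fd59A and caup (0.945 and 0.978 CPM), of CG2120 and Pdp1 (1.26 and 2.18 CPM), of Fer1, Camta and CG10209 (0.965 and 4.92 CPM), and of CG33557 and dmrt99B (3.58 and 4.39 CPM). The da-Gal4 controls of E5 had 0.322 and 0.0814 CPM and the MTD-Gal4 controls of twi 0.268 and 0.0174 CPM, the lowest of all control sets. Crosses with the same kind of control hairpin thus differed widely, the set of TfAP-2 and scrt standing at 35.9 and 40.95 CPM.

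Knockdown crosses were shifted toward low levels. Of the 45, 11 had 20 CPM or more, 25 had less than 10 CPM and 5 had less than 2 CPM. The largest means were those of toe (47.7 and 54.0 CPM), sens-2 (34.7 and 50.4 CPM) and Sox14 (40.4 and 41.0 CPM). The smallest were those of gfzf (0.177 and 0 CPM), twi (0.0309 and 0.670 CPM) and ss (0.524 and 0.208 CPM). Hsp68 did not separate these crosses, with group means of 7.76 CPM for toe, 8.02 CPM for sens-2, 6.60 CPM for Sox14, 5.97 CPM for gfzf and 7.17 CPM for ss.

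Each knockdown was then compared with the control of its own set at 16–18 hours. Both knockdown libraries lay below both controls for 30 of 45 TFs, where the same held for 23.7% of all gene tests, and both lay above for 10, against 23.1% of all gene tests. Of the 30 TFs below, 23 were also below at the peak, in the same crosses, where the gene was chosen. The excess is therefore not independent of that choice. The log2 fold changes had a median of -0.81. A call required an adjusted p of at most 0.1 and a log2 fold change of 0.5 or more in size. Hsp70Bb was called lower in 8 comparisons (1.77% of all gene tests) and higher in 5 (2.31% of all gene tests). DESeq2 called it lower in 20 comparisons, which included 6 of the 8, and higher in 7, which included all 5.

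The 8 TFs with lower Hsp70Bb were Bdp1, CG9876, HLH54F, TfAP-2, dac, foxo, pb and zfh2, from 6 control sets. TfAP-2, an AP-2 family factor, had 3.27 and 2.42 CPM in the knockdown, against 35.9 and 40.95 CPM in controls (log2 fold change -3.70, SE 0.18, edgeR adjusted p = 0.00532). The bHLH factor HLH54F, which the caudal visceral mesoderm requires, had 2.80 and 3.49 CPM, against 25.0 and 34.4 CPM in its controls (log2 fold change -3.26, SE 0.23, edgeR adjusted p = 0.0359). For zfh2, a zinc finger homeodomain factor, the values were 2.698 and 2.43 CPM in the knockdown and 17.5 and 21.1 CPM in controls (log2 fold change -2.81, SE 0.25, edgeR adjusted p = 0.00106). In each of the 3 the 4 libraries separated into a low and a high pair.

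The retinal determination factor dac had 4.97 and 4.57 CPM in the knockdown, against 34.45 and 22.6 CPM in controls (log2 fold change -2.61). The Hox factor pb had 7.72 and 8.07 CPM in the knockdown, sharing its controls with HLH54F (log2 fold change -1.94). Smaller decreases of 0.76 to 0.93 on the log2 scale were called for CG9876, Bdp1 and foxo, with knockdown libraries of 13.7 to 18.8 CPM. These calls are not independent of one another where TFs share controls, as Bdp1, dac and toe do.

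The 5 TFs with higher Hsp70Bb were CG10209, caup, fd59A, sens-2 and toe. The forkhead factor fd59A had 13.9 and 13.5 CPM in the knockdown, against 0.945 and 0.978 CPM in its controls (log2 fold change 3.80, SE 0.14, edgeR adjusted p = 0.00667). CG10209 had 26.3 and 23.1 CPM in the knockdown, against 0.965 and 4.92 CPM in its controls (log2 fold change 3.02, SE 0.57, edgeR adjusted p = 0.00854). Both were measured against low control sets, and their knockdown levels lie within the range of the 19 mCherry group means. Against the same controls as fd59A, the caup knockdown had 3.80 and 2.72 CPM (log2 fold change 1.57, SE 0.59), in the libraries with egg transcripts. The paired-type homeodomain factor toe had 47.7 and 54.0 CPM in the knockdown, against 34.45 and 22.6 CPM in controls (log2 fold change 0.85, SE 0.19, edgeR adjusted p = 0.0558), and sens-2 differed by 0.57 (SE 0.18).

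**Figure D3:**
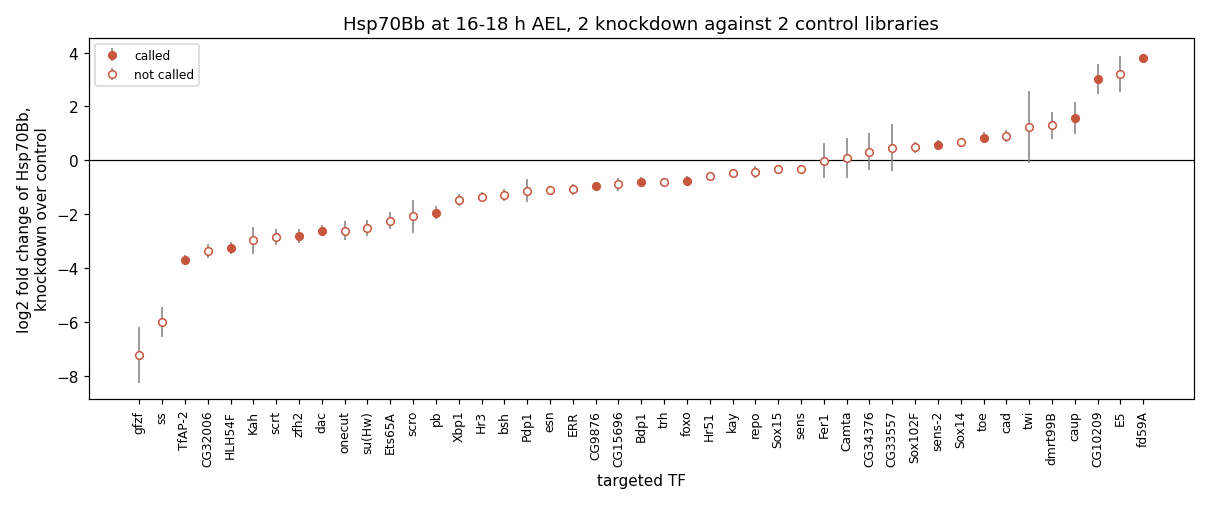
Log2 fold change of Hsp70Bb, knockdown over control, for each of the 45 TFs at 16–18 hours AEL, ordered by size. Bars are standard errors of the edgeR fit, filled circles were called and open circles were not. The called values run from -3.70 for TfAP-2 to 3.80 for fd59A, and gfzf and ss at the left were not called.

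The calls do not follow the size of the difference alone, since p was adjusted within each comparison over all genes of that comparison. In the 13 comparisons with a call of Hsp70Bb, 3 to 5630 genes were called in all, with a median of 700. In the other 32 comparisons the median was 2.5 genes, and in 14 of them no gene was called. Of these 32, 22 had both knockdown libraries below both controls, 15 of them by more than 1 on the log2 scale. The knockdown of gfzf, a GST-domain protein with FLYWCH zinc fingers, was one of these, with 0.177 and 0 CPM against 14.8 and 14.7 CPM in its controls (edgeR's adjusted p = 0.9999, unadjusted 0.00207). The knockdown of ss, which sets distal antennal identity, was another, with 0.524 and 0.208 CPM against 18.3 and 30.4 CPM in its controls (edgeR's adjusted p = 0.116, unadjusted 6.62e-05). CG32006, with 2.98 and 4.39 CPM against 35.6 and 38.5 CPM in its controls, had an adjusted p of 0.381 by edgeR (unadjusted 7.88e-05).

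The sum of the 6 Hsp70 genes was called lower for the same 8 TFs and for ss, and higher for CG10209, fd59A and toe. The sum for ss was 0.900 and 0.709 CPM, against 18.7 and 30.8 CPM in controls (log2 fold change -4.90, SE 0.39, edgeR adjusted p = 0.0690). For these TFs the counts on other copies did not make up for the low Hsp70Bb values, since the sum was lower too. A rise in reads shared by several copies would be missed, because such reads were not counted. In the TfAP-2 knockdown the sum was 10.1 and 3.11 CPM, against 37.3 and 41.6 CPM in controls. The first library held 3.09 CPM of Hsp70Ab and 1.54 CPM of Hsp70Bc. Hsp70Bbb, Hsp70Ba and Hsp70Aa were above both controls in that library, at 0.824, 0.794 and 0.6235 CPM, and below both in the second library.

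The calls differed in how well they held. Those of CG10209, HLH54F, TfAP-2 and fd59A were kept in all 9 other settings tried. The call of zfh2 was absent only with DESeq2, which gave no adjusted p, that of toe only in a joint fit of the window, and that of dac in both. The call of CG9876 was kept in 5 of 9 settings and lost without either knockdown replicate, with RLE size factors and in the joint fit. Those of caup and pb were kept in 6 and lost without either control replicate, and that of pb also in the joint fit and that of caup with the replicate block. Those of foxo and Bdp1 were kept in 7 and lost without control replicate 1 and in the joint fit. The call of sens-2 was kept in 4 of 9 settings, and was lost without control replicate 1 or 2, without knockdown replicate 2, with the replicate block and in the joint fit.

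Calls of the other members at 16–18 hours are read beside the 1.77% of all gene tests called lower and 2.31% called higher. Hsp68 was called higher for 1 TF of 45, near that share. This was zfh2, with 11.8 and 15.1 CPM in the knockdown, against 6.45 and 3.96 CPM in controls (log2 fold change 1.48, SE 0.28, edgeR adjusted p = 0.0559). The call was kept in 5 of 9 other settings, and by edgeR its adjusted p was 0.319 without knockdown replicate 2, 0.138 with RLE size factors and 0.12 in a joint fit of the window, while DESeq2 gave none. Over the 45 TFs the median log2 fold change of Hsp68 was -0.07, with 5 comparisons entirely below the controls and 8 entirely above. Hsp70Ab, tested for 29 TFs, and Hsp70Ba, tested for 17, were called lower for sens-2, at 0.0373 and 0.0554 CPM of Hsp70Ab in the knockdown, against 0.866 and 0.313 CPM in controls, and at 0.0745 and 0.0830 CPM of Hsp70Ba, against 0.812 and 0.271 CPM. The Hsp70Ab call was kept in 5 of 9 other settings and the Hsp70Ba call in 2 of 9, and both were lost without control replicate 1 or 2. Hsp70Bc, tested in 34 comparisons, and Hsp70Bbb, tested in 4, were not called by edgeR, with 0 and 1 unadjusted p under 0.05, and Hsp70Aa passed the filter on low counts in none.

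At 0–1.5 hours, before the zygotic genome is broadly active, Hsp70Bb was tested for 40 TFs and called for none, with 11 unadjusted p under 0.05 by edgeR and 4 calls of lower levels by DESeq2. Calls were rare in this window over all genes, 0.774% of tests lower and 0.288% higher. Both knockdown libraries lay below both controls for 19 of 43 TFs and above for 5, where 18.4% and 17.6% of all gene tests did. In the CG32006 knockdown Hsp70Bb stood at 0.0862 and 0.188 CPM, against 2.50 and 6.15 CPM in controls (edgeR's adjusted p = 0.274, unadjusted 0.00297).

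The single call of a member in this window was Hsp70Ab for CG10209, with 2.82 and 3.41 CPM in the knockdown, against 6.17 and 7.74 CPM in controls (log2 fold change -1.17, SE 0.28, edgeR adjusted p = 0.0834). It was lost without either knockdown replicate. Hsp68 was tested for all 45 TFs and called for none by edgeR, with 0 unadjusted p under 0.05, while DESeq2 called 1 lower. Its group means ran from a lowest of 5.33 CPM to a highest of 14.4 CPM among knockdowns, and from 6.21 to 12.6 CPM among mCherry controls. The standard deviation between groups was 0.29, where the median gene had 0.13.

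For the Hsp70 sum at 0–1.5 hours the log2 fold changes ran from -1.43 to 1.50, and the extreme groups were as follows. The CG34376 knockdown was the highest with 11.8 CPM and its own mCherry control the next with 11.2 CPM. The twi knockdown, at 0.0671 CPM, and its MTD-Gal4 control, at 0.153 CPM, were the lowest, followed by the E5 knockdown with 0.478 CPM. These 3 groups belong to the 2 sets without an mCherry label.

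At the peak window, which chose the genes, Hsp70Bb was called lower for 16 TFs and higher for CG10209, Camta and twi. Over all genes 2.77% of tests were called lower and 4.05% higher there. The Camta knockdown had only 1 library in this window, with 10.9 CPM, against 2.94 and 5.21 CPM in controls. The twi knockdown was near the limit of counting, with a mean of 0.572 CPM, against 0 and 0 CPM in controls. Both knockdown libraries were below both controls for 26 of 44 TFs and above for 6, beside 23.8% and 22.8% of all gene tests. The values of the 16 ranged widely. The TfAP-2 knockdown had 1.75 and 1.80 CPM at 10–12 hours, against 27.3 and 35.4 CPM in controls. The knockdown of repo, the glial homeodomain factor, had 0.930 and 0.868 CPM at 14–16 hours, against 25.1 and 31.9 CPM in controls. The weakest of the 16 by fold were CG34376, bsh and kay, whose knockdown libraries held 12.1 to 29.9 CPM.

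No sharp boundary separated called from uncalled TFs. Just outside the calls, the knockdown of scrt had 5.93 and 7.45 CPM at 10–12 hours, against the same controls as TfAP-2, and that of dac had 5.58 and 6.31 CPM at 6–8 hours, against 21.4 and 19.4 CPM in controls. Of the remaining members Hsp70Ba was called lower for CG33557 and twi, Hsp70Bc lower for Kah and Hsp68 higher for zfh2.

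Peak levels, which chose the gene, and levels at 16–18 hours are set side by side here as a description. The same cross was measured at the peak and at 16–18 hours in separate embryos for 40 knockdowns and 19 controls, leaving out peaks at 2–4 hours. On log2(CPM + 0.5) the levels of the 2 windows had a Spearman correlation of 0.864 and a Pearson correlation of 0.814 over the 59 crosses, of 0.771 and 0.70 over the 40 knockdowns and of 0.768 and 0.961 over the 19 controls. The points share parents, driver stock and control sets, so no p is given. The 16–18 hour mean was within 2-fold of the peak mean in 29 of 40 knockdowns and in 16 of 19 controls. Each mean was scaled within its own window, so such ratios also contain the difference in scaling between windows.

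**Figure D4:**
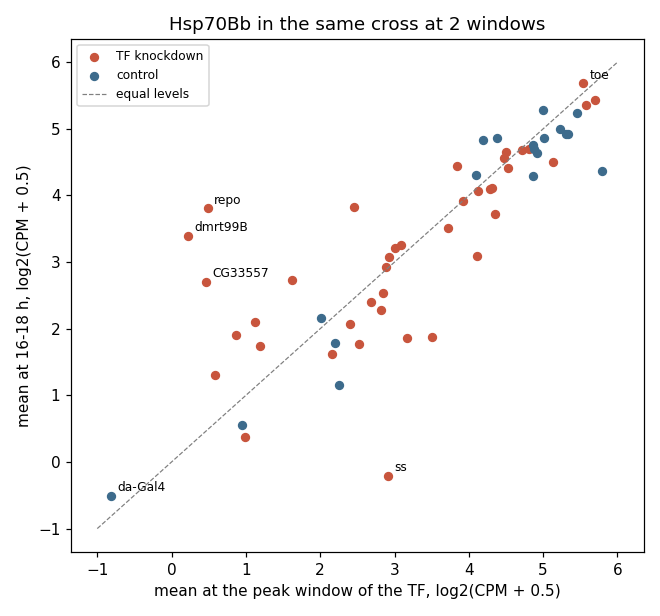
Mean Hsp70Bb of the 2 libraries of a cross at 16–18 hours AEL (vertical axis) against the mean at the peak window of the TF (horizontal axis), both as log2(CPM + 0.5). Red points are 40 knockdowns, blue points 19 controls, and the dashed line marks equal levels. Most crosses lie near the line, repo, dmrt99B and CG33557 above it and ss below it.

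Both knockdown libraries lay below both controls in both windows for 23 TFs and above them in both windows for 5 TFs, a count that includes the peak values by which the gene was chosen. One TF, dmrt99B, was below its controls at the peak and above them at 16–18 hours. Its knockdown had 0.629 and 0.699 CPM at 6–8 hours, against 3.81 and 3.24 CPM in controls, and 10.4 and 9.66 CPM at 16–18 hours, against 3.58 and 4.39 CPM in controls. The first dmrt99B library of 16–18 hours also held 45745 CPM of metallothionein transcripts, which encode metal-binding stress proteins, and its share in this value was not tested. In the repo knockdown the level at 16–18 hours, 11.5 and 15.5 CPM, was 15.0 times that at 14–16 hours, each scaled within its window.

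The control sets with low Hsp70Bb had these peak values, which were among those that chose the gene. The mCherry controls of CG33557 and dmrt99B had 3.81 and 3.24 CPM at 6–8 hours, those of Pdp1 3.51 and 5.03 CPM at 14–16 hours, those of Fer1, Camta and CG10209 2.94 and 5.21 CPM at 12–14 hours, and those of fd59A and caup 2.22 and 0.628 CPM at 10–12 hours. The da-Gal4 controls of E5 had 0.0324 and 0.103 CPM at 10–12 hours. By control set, 14 of 21 sets had a TF below its controls at 16–18 hours and 9 had one above, so that most of the decreases did not come from 1 set.

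Replicates of a cross could nonetheless disagree. The 2 libraries of a group differed more than 4-fold in Hsp70Bb in 7 of 66 groups at 16–18 hours and in 6 of 65 at the peak. The mCherry control of CG34376 had 6.05 and 34.4 CPM at 16–18 hours. The mCherry control of onecut, scro and ss had 2.52 and 56.9 CPM at 12–14 hours, and 5 of the 6 knockdown libraries of these TFs fell between them, the exception being 1 of scro at 1.57 CPM. A comparison with such a control has little power, and the 3 TFs were not called there.

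The correlations among members at 16–18 hours were higher between the other Hsp70 copies and Hsp68 than for Hsp70Bb. Over the 132 libraries the sum of the 5 other Hsp70 genes and Hsp68 had a Spearman correlation of 0.486 and a Pearson correlation of 0.646, while Hsp70Bb and Hsp68 had 0.0455 and -0.0186. Hsp70Bb and the 5 other Hsp70 genes had 0.23 and 0.111, and at 0–1.5 hours 0.365 and 0.373 over 130 libraries. The divergent copies Hsp70Aa and Hsp70Ab, at 16–18 hours, had 0.339 and 0.666. Libraries share cross, set and depth, and most counts of the 5 genes are small, so these are descriptions.

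**Figure D5:**
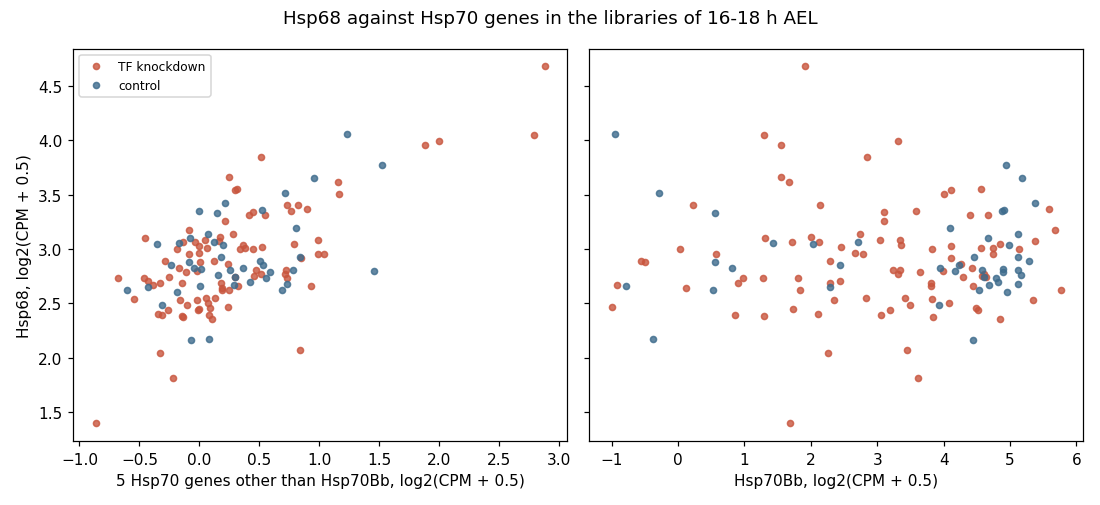
Hsp68 (vertical axis) against the sum of the 5 Hsp70 genes other than Hsp70Bb (left panel) and against Hsp70Bb (right panel) in the 132 libraries of 16–18 hours AEL, all as log2(CPM + 0.5). Red points are TF knockdown libraries and blue points control libraries. The highest Hsp68 value, 25.2 CPM, is a TfAP-2 knockdown library at the upper right of the left panel, and the highest blue point, 16.2 CPM, is an MTD-Gal4 control library.

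Several libraries with high Hsp68 differed from the other replicate of their cross. Replicate 1 of the TfAP-2 knockdown had 25.2 CPM of Hsp68 and 3.09 CPM of Hsp70Ab, and replicate 2 had 12.2 and 0.240 CPM. Replicate 2 of the E5 knockdown had 16.0 CPM of Hsp68 and 3.74 CPM of Hsp70Ab, and replicate 1 had 8.06 and 0.0190 CPM. Their Hsp70Bb levels, 3.27 and 2.42 CPM for TfAP-2 and 1.98 and 1.95 CPM for E5, differed far less between replicates. Replicate 1 of the esn knockdown had 15.5 CPM of Hsp68 and 1.71 CPM of Hsp70Ab, and replicate 2 had 9.66 and 0.346 CPM. Among controls, replicate 2 of the MTD-Gal4 set had 16.2 CPM of Hsp68 and 1.45 CPM of Hsp70Bc, and replicate 1 had 4.00 and 0.425 CPM. In the zfh2 knockdown both replicates were high in Hsp68, as given above.

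The other genes of the pathway are given as counts beside the share of all genes. Over 22 such genes, 165 tests were made in the 8 comparisons of 16–18 hours with lower Hsp70Bb, of which 7 were called lower and 4 higher, where 2.58% of all genes were called lower and 2.91% higher. In the 5 comparisons with higher Hsp70Bb, 8 of 103 tests were called lower and 11 higher, where 8.71% of all genes were called lower and 10.5% higher. Hsf itself stood at a median of 0.05 (log2 fold change) over the 8 comparisons with lower Hsp70Bb, and 1 of its 45 comparisons was called, as higher.

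Products of the small heat shock genes (Hsp22, Hsp23, Hsp26, Hsp27, Hsp67Ba, Hsp67Bc and CG4456) hold unfolded proteins in solution. Over all 45 TFs at 16–18 hours, these genes had 6 lower (2.38%) and 10 higher (3.97%) calls in 252 tests. Of all gene tests, 1.77% and 2.31% were called. Hsp22 had no counted read in any library of 0–1.5 or 16–18 hours. The counting left out reads that overlap several annotated genes, so this does not show that Hsp22 was silent. The Hsp90 gene Hsp83 was called lower for 1 TF. The co-chaperones and release factors stv, DnaJ-1, Stip1, Hsc70Cb, Droj2 and STUB1 had 7 calls (2.59%) in each direction in 270 tests, near the share of all genes, of which the ubiquitin ligase gene STUB1 gave 5 lower and 6 higher. The 5 Hsc70 cognates had 4 lower (1.78%) and 1 higher (0.444%) in 225 tests. The heat shock RNAs lncRNA:Hsromega and lncRNA:alphagamma-element:CR32865 had 1 call (1.15%) in each direction in 87 tests. Metallothionein and glutathione S-transferase genes of other stresses (MtnA, MtnB, MtnC, MtnD, MtnE, GstD1 and GstD2) had 14 lower (4.58%) and 5 higher (1.63%) in 306 tests. The genes next to the members had 5 lower (1.85%) and 9 higher (3.33%) in 270 tests, and Octbeta3R, the receptor gene beside Hsp70Bc, was called in 1 comparison, as lower.

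By age, levels of other chaperone genes are given as medians over libraries. Hsp83 had a median of 391.4 CPM at 16–18 hours, against 3187 CPM at 0–1.5 hours, and Hsp26 13.9 CPM, against 933.6 CPM. Hsc70-4, the main cytosolic cognate, stood at 2756 CPM at 16–18 hours and 3957 CPM at 0–1.5 hours. The non-coding heat shock RNA lncRNA:Hsromega was the reverse, with 170.1 CPM at 16–18 hours, against 6.23 CPM at 0–1.5 hours.

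Over the libraries of all windows the genes whose levels were most like the Hsp70 sum, among 10098 genes ranked by Spearman correlation of log2(CPM + 0.5), were Cals (0.629, 4:1112874-1123357), chrb (0.622, 3L:11487550-11499055), msi (0.60, 3R:25516118-25608423), Tsp26A (0.596, 2L:6000228-6003738) and Nhe2 (0.595, 2L:21104568-21134255). Pearson correlations were 0.615 to 0.648. Cals encodes calsyntenin, chrb an inhibitor of TOR signalling, msi an RNA-binding protein, Tsp26A a tetraspanin and Nhe2 a sodium–proton exchanger. The mean of each window was subtracted from every gene and from the sum before ranking. The likeness is therefore across libraries within windows and leaves out the change between windows. The libraries include those of the peak, which chose the gene, and they share crosses and control sets. The ranking is a description, and likeness beyond differences between crosses or sets was not tested. The heat shock genes ranked lower, with Spearman correlations of 0.343 for lncRNA:Hsromega, 0.157 for Hsf and 0.136 for Hsp83.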

How the data were processed

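PolyA RNA of whole, frozen Drosophila embryos was sequenced from stranded libraries. The authors aligned the reads with STAR 2.7.3a to dm6, allowing up to 20 alignments, and deposited counts per gene from HTSeq 0.12.4, which are whole numbers without scaling and were used as deposited. Per the labels DESeq2 1.24.0 was also used. The strand setting of the counting was not given in the sources used here. Reads without a gene or over several genes (together 2.59% to 8.90% of a library) and reads with several alignments were left out. Libraries held 13148430 to 167412388 counts, so that low copies such as Hsp70Aa rest on few reads.

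The 7 genes and all gene lists were chosen with earlier results of these data known. The named genes are the members, their sums, the lists of heat shock and stress genes, the nearest neighbours and the 5 genes most like the Hsp70 sum. For each TF and window, knockdown and control libraries of 1 set were compared with edgeR 4.0.16 (R 4.3.3) by the quasi-likelihood test, with TMM, filterByExpr at a minimum count of 10 and Benjamini-Hochberg adjustment over all genes left. A row for the sum of the 6 Hsp70 genes was added. A call needed an adjusted p of at most 0.1 and, between knockdown and control, a log2 fold change of 0.5 or more in size. Windows were compared in the control libraries with the control set as a term. Spread and likeness used log2(CPM + 0.5), and for likeness the mean of each window was subtracted first. The chi-square per degree of freedom between the 2 libraries of a group was at least 8.16 in all 198 groups, so none was a repeated library. The scripts were tested on simulated data. Alternatives were RLE size factors, no filter, DESeq2 1.42.0, 1 fit per window, the replicate number as a block and leaving out each replicate. The uniqueness of stretches of each paralog, which needs a genome sequence, was not analysed here, and no sequences are shown.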

Additional observations from a re-analysis of the deposited data

Results flagged for a closer look

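The knockdown effect was compared between 16–18 hours and 0–1.5 hours by an interaction term in edgeR, with Benjamini-Hochberg adjustment over all genes of a TF. This was done for Hsp70Bb, Hsp68 and the Hsp70 sum in 45 TFs each and for the other members where they passed the filter. An interaction of Hsp70Bb had an unadjusted p under 0.05 for 9 TFs and passed the adjustment for 1, and for the Hsp70 sum the numbers were 14 and 2. Over all genes and the 45 TFs 1.96% of tests passed the adjustment. Beside that share, 1 and 2 of 45 do not set Hsp70Bb or the Hsp70 sum apart from other genes. For the TFs given below many genes passed, 564 of 11438 for CG10209 and 883 of 11712 for esn.

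In the CG10209 experiment the effect on the Hsp70 sum was higher at 16–18 hours by 3.53 on the log2 scale (SE 0.71, edgeR adjusted p = 0.0602). The sum was 26.8 and 23.9 CPM in the knockdown at 16–18 hours, against 1.57 and 5.86 CPM in controls, and 4.21 and 5.56 CPM in the knockdown at 0–1.5 hours, against 7.42 and 9.64 CPM in controls. Different copies led at the 2 windows, Hsp70Bb at 16–18 hours and Hsp70Ab at 0–1.5 hours.

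In the esn experiment the effect on Hsp70Bb was lower at 16–18 hours, by -4.30 (SE 0.92, edgeR adjusted p = 0.0553), and that on the Hsp70 sum by -2.28 (SE 0.52, edgeR adjusted p = 0.0651). Hsp70Bb had 9.42 and 8.09 CPM in the knockdown at 16–18 hours, against 21.5 and 16.65 CPM in controls, and 0.703 and 1.04 CPM in the knockdown at 0–1.5 hours, against 0 and 0.178 CPM in controls. The early control values rest on few reads, so the size of the interaction is imprecise.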

How the results depend on the processing

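The counts of comparisons called at 16–18 hours moved most. Hsp70Bb was called lower in 8, against 14 without the filter, 20 with DESeq2, which included 6 of the 8, and 18 with the replicate block, and in 11 to 18 when 1 replicate was left out. For the Hsp70 sum the 9 lower calls became 18 with DESeq2 and 18 with the replicate block (11 to 18 leaving out replicates), and the 3 higher calls became 7 with DESeq2, 5 with the replicate block and 5 in 1 fit of the window (4 to 7 leaving out replicates). Another member was called lower in 2, against 0 with DESeq2 and 1 in 1 fit of the window (1 to 3 leaving out replicates), and higher in 1, against 0 with RLE size factors and 4 with the replicate block (1 to 7 leaving out replicates). At 0–1.5 hours the edgeR count of 0 for lower Hsp70Bb became 1 without the filter and 4 with DESeq2 (0 to 4 leaving out replicates), and that for higher Hsp70Bb 0 to 1 leaving out replicates. The sum had 0 lower calls, against 1 without the filter, 1 with DESeq2 and 1 with the replicate block (0 to 1 leaving out replicates), and 0 higher calls, against 1 with DESeq2. Another member had 1 lower call, against 2 with DESeq2 (0 to 1 leaving out replicates), and 0 higher calls, against 2 in 1 fit of the window (0 to 1 leaving out replicates). Hsp68 in controls at 16–18 hours, 0.07 above 0–1.5 hours, was 0.73 with RLE size factors and 0.73 with DESeq2, -0.0049 to 0.0741 when a replicate was left out and -0.0396 in mCherry sets alone. The cause was not tested. The main fit did not treat equal replicate numbers as pairs. The correlation of same-numbered deviations ran from -0.873 to 0.880 over the 45 comparisons of 16–18 hours, with a median of 0.063. It was over 0.1 in 22 comparisons and under -0.1 in 16, which does not settle whether the numbers pair the samples. Each TF was fitted only on its own libraries and those of its controls. Leaving out the sets labelled da-Gal4 and MTD-Gal4, caup or Bdp1, choices made after seeing the data, thus took away only calls of the TFs left out. At 16–18 hours these are the Hsp70Bb call of caup and, if Bdp1 is left out at that window, its Hsp70Bb and Hsp70 sum calls. In all, 181 values under other settings kept their direction and call, 38 counts moved by more than 1.5 times, and the 2 gains and 2 changes of sign are those of Hsp68. Low counts limit Hsp70Aa, Hsp70Ba, Hsp70Bbb and Hsp70Bc, which often failed the filter.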
